A study of Mus musculus with 4 samples.

Results

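Eomes is a T-box transcription factor of cytotoxic lymphocytes and a close relative of T-bet, the product of Tbx21. It is known for its part in memory T cells and in natural killer (NK) cells, where it goes with cytotoxic effector genes and with receptors for homeostatic cytokines. Granzyme K, the product of Gzmk, is a serine protease of granules that marks a frequent kind of Eomes-positive T cell in inflamed tissue. The cells described here had at least 1 UMI (unique molecular identifier, 1 captured transcript) of Eomes, no UMI of Gzmk and at least 1 UMI of Cd3e, a chain of the T cell receptor complex. They were chosen by these values, so that Eomes, Gzmk and Cd3e are descriptions of the choice and were not tested. There were 886 such cells among 21342 Cd3e-positive cells and 32525 deposited barcodes.

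The cells came from single-cell RNA sequencing of UTCαβ, the double-negative αβ T cells. Leukocytes (CD45+) that had TCRβ and lacked CD11b, TCRγδ, CD4 and CD8 were sorted from sarcomas induced in mice by 3-methylcholanthrene, a carcinogenic hydrocarbon. There were 2 Csf3r+/+ libraries and 2 Csf3r-/- libraries, the latter from mice that lack the receptor for granulocyte colony-stimulating factor throughout the body and have few neutrophils. All mice received 3-methylcholanthrene, and the labels give no age or other allele. A library is known by the number after the cell barcode, which the labels do not tie to an animal, and the 2 libraries of a genotype were deposited in 1 matrix. The deletion could not be checked in these cells, since Csf3r had 1 UMI in the Eomes-positive cells of Csf3r+/+ library 2 and 0 in those of the other libraries.

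Values per library are given below in the order Csf3r+/+ library 1, Csf3r+/+ library 2, Csf3r-/- library 1 and Csf3r-/- library 2. The Eomes-positive cells without Gzmk numbered 84 of 2843, 613 of 6458, 102 of 5215 and 87 of 6826 Cd3e-positive cells. Csf3r+/+ library 2 thus held most of them, and results are given with and without it where it decides them. Their sums held 386043, 3336398, 455610 and 377975 UMIs. They were deeper than the other Cd3e-positive cells, with medians of 4043, 4871, 3845 and 3705 UMIs per cell against 3027, 2910, 2219 and 1975. A deeper cell is more likely to show a UMI of a rare transcript, so that the rule itself favors deep cells. No barcode sequence was shared between the Eomes-positive cells of different libraries, while the libraries as a whole shared 33 to 163 barcodes in pairs. No doublets were removed, and 22.6%, 21.2%, 23.5% and 32.2% of the cells had at least 2 UMIs from lists of macrophage, B cell and fibroblast genes, against 17.5%, 12.2%, 14.7% and 23.5% of the other cells.

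At full depth the cells made up 2.95%, 9.49%, 1.96% and 1.27% of Cd3e-positive cells. After each cell was thinned to 1500 UMIs, the shares were 1.65% (exact 95% interval 1.21 to 2.20), 3.81% (3.36 to 4.32), 1.18% (0.888 to 1.53) and 0.786% (0.576 to 1.05). These intervals cover counting error only. At this depth and at full depth both Csf3r-/- libraries had lower shares than both Csf3r+/+ libraries. At 2500 UMIs the groups overlapped, with 2.57%, 7.89%, 2.87% and 2.52% (exact permutation p = 0.667), and Csf3r+/+ library 2 alone stood apart. At 1500 UMIs the Csf3r+/+ libraries averaged 2.73% ± 1.53 (SD, n = 2) and the Csf3r-/- libraries 0.981% ± 0.276 (SD, n = 2). The difference at that depth was -1.75 percentage points. The two-sided exact permutation test gave p = 0.33, the smallest value that 2 libraries against 2 allow. With Csf3r+/+ library 2 left out the difference was -0.673 points, and with Csf3r+/+ library 1 left out it was -2.83, so that its size rested on which Csf3r+/+ library was used. Thinning left out 63, 139, 541 and 975 cells of under 1500 UMIs, none of them an Eomes-positive cell without Gzmk.

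An Eomes UMI can also come from free RNA in the droplet. At 1500 UMIs, 0 of 17, 0 of 57, 0 of 53 and 0 of 51 barcodes with macrophage genes and no CD3 chain had one, too few barcodes to set a useful limit. Among cells with a UMI of Il17a, the cytokine of type 3 T cells, 4 of 665 (0.602%) in Csf3r-/- library 1 and 18 of 2660 (0.677%) in Csf3r-/- library 2 had Eomes. In the Csf3r+/+ libraries 0 of 40 and 0 of 29 had it, where the exact intervals reach 8.81% and 11.9%. The median depth was 2081 UMIs in these cells and 2223 in the macrophage-like barcodes. All of these counts include cells with Gzmk. In both Csf3r-/- libraries the interval of the share in Il17a-positive cells, 0.164 to 1.53 and 0.402 to 1.07, held the share in all Cd3e-positive cells. By this check the share of Eomes-positive cells in those 2 libraries was not told apart from that among Il17a-positive cells. In the Csf3r+/+ libraries the Il17a-positive cells are too few to compare. The check sets a part against the whole, since the 2660 cells of Csf3r-/- library 2 are among its 5851 Cd3e-positive cells at that depth. A difference between cells with and without Il17a was not tested.

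**Figure D1:**
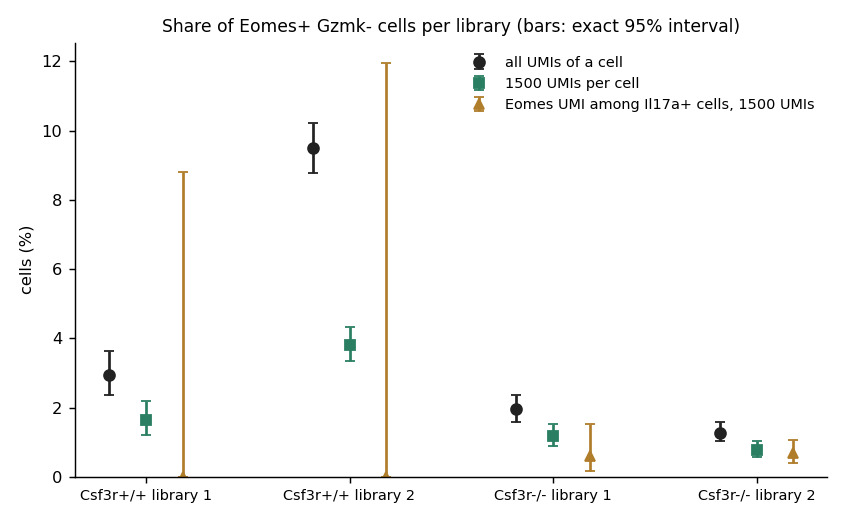
Share of cells per library in percent, with exact 95% binomial intervals: Eomes-positive cells without Gzmk among Cd3e-positive cells at full depth (circles) and at 1500 UMIs per cell (squares), and cells with an Eomes UMI among those with Il17a at 1500 UMIs (triangles). For circles and squares Csf3r+/+ library 2 stands highest at 9.49% and 3.81%, and both Csf3r-/- libraries lie below both Csf3r+/+ libraries.

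Eomes itself, on chromosome 9 of GRCm38 (118478212 to 118486132, + strand), stood at 251, 246, 307 and 307 CPM (the UMIs of a gene per 1000000 UMIs of the summed cells). Most of the cells had a single Eomes UMI (74, 476, 76 and 74 cells), and 186 of 886 had 2 or more. The 700 cells with 1 Eomes UMI, just inside the rule, had 25.2, 206, 190.1 and 136 CPM of Ccr7. The 20357 cells with none, just outside it, had 7.49, 109, 30.3 and 34.1 CPM. The 34 cells just outside the limit on Gzmk, with 1 UMI of it, had 0, 40, 3 and 0 UMIs of Ccr7 in 11, 14, 6 and 3 cells, so that they were above the cells with 1 Eomes UMI in Csf3r+/+ library 2 alone. Tbx21, which the rule does not use, was found in 16, 120, 20 and 7 of the cells. It stood at 46.6, 45.6, 52.7 and 23.8 CPM against 36.1, 54.5, 16.6 and 15.6 in the other cells, and was not called different (log2 fold change 0.39 ± 0.25, adjusted p = 0.504). Tbx21 was called higher in 1 of 14 alternatives, the one without Csf3r+/+ library 2.

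Genes of NK receptors stood higher and genes of type 3 T cells lower in the Eomes-positive cells without Gzmk than in the other Cd3e-positive cells of the same library, with 15 of 24 and 18 of 20 tested genes called. Of the memory and lymph node homing genes fewer were called, 5 of 21 and 6 of 13, and those of homing went both ways. In edgeR's quasi-likelihood test with the library as a block, 10291 genes were tested and 530 (5.15%) were called at an adjusted p under 0.05, 222 higher (2.16%) and 308 lower (2.99%). All adjusted p-values below come from this test, with Benjamini-Hochberg adjustment over all genes tested. Errors of log2 fold changes are standard errors (SE), worked out from the fold change and the F statistic of the test. The 4 genes that go with Eomes as markers of these cells, Ccr7, Myb, Slamf6 and Id3, were all called higher and were higher in each of the 4 libraries. They were chosen with results of these data known, so that their direction is not independent evidence.

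Ccr7, the receptor that guides T cells along CCL19 and CCL21 into lymph nodes (chromosome 11, 99144196 to 99155077, - strand), had 28.5, 246, 193 and 177 CPM against 7.41, 116, 30.9 and 34.9 in the other cells. The log2 fold change was 1.95 ± 0.21, adjusted p = 1.19e-05. Csf3r+/+ library 1 was far below the other libraries in both groups of cells, with 11 UMIs in 9 of 84 cells. Mature dendritic cells also make Ccr7, and at 1500 UMIs it was found in 23.5%, 28.1%, 47.2% and 1.96% of the macrophage-like barcodes (4 of 17, 16 of 57, 25 of 53 and 1 of 51) against 7.14%, 20.1%, 13.7% and 14.9% of the Eomes-positive cells. The share in the Eomes-positive cells was above that of these barcodes in Csf3r-/- library 2 alone, and in the other libraries it is not read as expression. The barcodes may include dendritic cells, so that their share is no measure of free RNA. At 1500 UMIs 27, 491, 126 and 174 of the other Cd3e-positive cells had a Ccr7 UMI, and 2669, 5215, 4446 and 5590 had none. The part of free RNA in the Ccr7 levels was not tested. The list of 10 dendritic cell genes summed to 18.1, 309, 65.8 and 1558 CPM in the Eomes-positive cells and 109, 517, 569 and 1074 in the others, lower in 3 libraries and higher in Csf3r-/- library 2. The list is led by Cd74 in Csf3r-/- library 2, and 6, 3, 5 and 5 of its 10 genes were at 0 in the Eomes-positive cells, among them Xcr1 in each library. It holds no genes particular to mature dendritic cells, and the part of such cells in the Ccr7 levels was not tested. Without cells that had at least 2 UMIs from the macrophage, B cell and fibroblast lists, the log2 fold change of Ccr7 was 1.89 (adjusted p = 2.16e-06). In Csf3r-/- library 1, 5 cells held 56.8% of the Ccr7 UMIs.

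Myb, a transcription factor of progenitor and stem-like lymphocytes (chromosome 10, 21124935 to 21160984, - strand), had 7.77, 26.7, 11 and 31.7 CPM against 1.27, 11.1, 3.14 and 2.84, with a log2 fold change of 1.99 ± 0.38, adjusted p = 0.00298. These levels rest on 3, 89, 5 and 12 UMIs. The call for Ccr7 and for Myb was kept under each of the 15 alternatives run.

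Slamf6, a self-binding receptor of the SLAM family that signals through the adaptor SAP (chromosome 1, 171917515 to 171953170, + strand), had 31.1, 62, 74.6 and 29.1 CPM against 17.4, 37.4, 18.2 and 11.7. The log2 fold change was 1.19 ± 0.21, adjusted p = 0.00177, and with cells thinned to 1500 UMIs it was 1.36 with an adjusted p of 0.127. Id3, an inhibitor of E proteins that restrains effector differentiation (chromosome 4, 136143497 to 136145755, + strand), had 153, 145, 127 and 39.7 CPM against 88.3, 121, 21.8 and 18.3, with a log2 fold change of 1.06 ± 0.25, adjusted p = 0.0161. Id3 was no longer called without Csf3r+/+ library 1 (adjusted p = 0.0806) or without Csf3r-/- library 1 (adjusted p = 0.0519). In Csf3r+/+ library 2 the cells differed little in Id3 from the others, which were themselves high there.

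**Figure D2:**
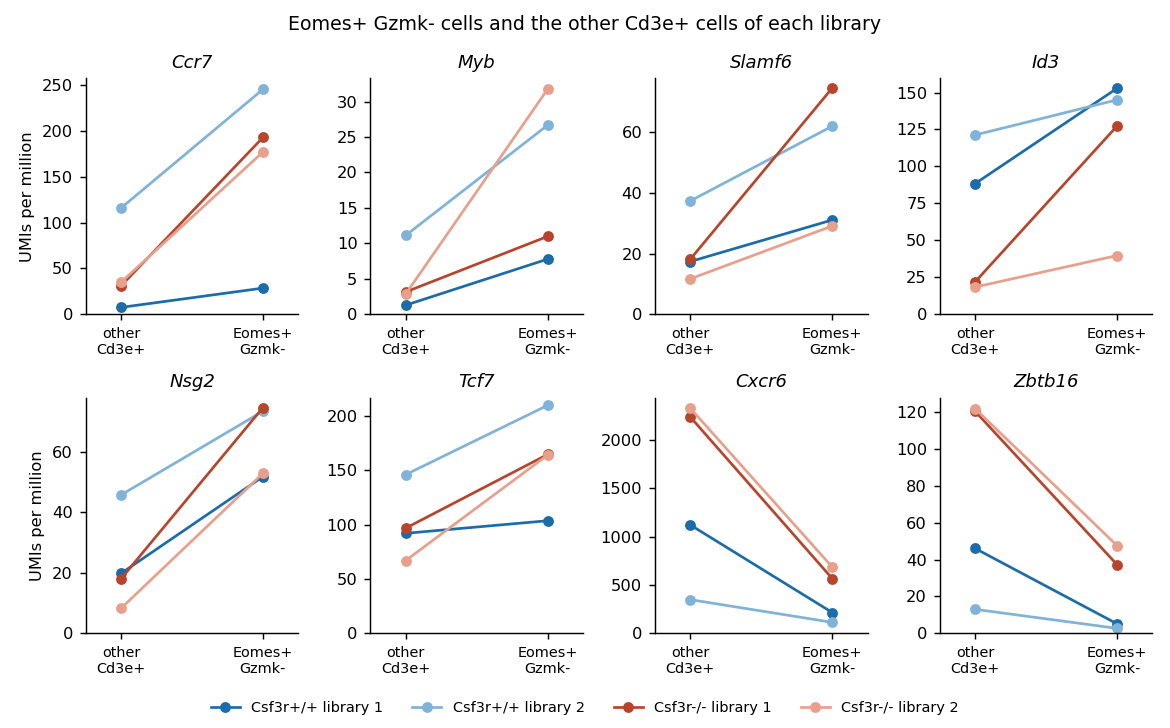
CPM of 8 genes in the other Cd3e-positive cells and in the Eomes-positive cells without Gzmk, joined by a line for each library. Ccr7, Myb, Slamf6, Id3, Nsg2 and Tcf7 rise in every library, and Cxcr6 and Zbtb16 fall in every library.

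Of the memory and quiescence factors, 21 of 22 were tested, 5 were called higher and none lower, with a median log2 fold change of 0.29 against -0.03 over all genes tested. Beside Myb and Id3 they were Tcf7, Foxp1 and Nsg2. Tcf7 encodes TCF-1, the transcription factor of stem-like T cells, and had 104, 209.8, 165 and 164 CPM against 92, 146, 96.8 and 67 (log2 fold change 0.73 ± 0.14, adjusted p = 0.00373). Its difference was small in Csf3r+/+ library 1. Nsg2 had 51.8, 73.4, 74.6 and 52.9 CPM against 19.8, 45.7, 18 and 8.26 (1.46 ± 0.25, adjusted p = 0.00119), and Foxp1, a factor that holds T cells in quiescence, stood at 0.61 ± 0.15, adjusted p = 0.0204. Lef1, a partner of TCF-1, and Klf2, a factor that drives exit from tissue, were not called (0.24 ± 0.17, adjusted p = 0.562 and 0.23 ± 0.19, adjusted p = 0.643).

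Of the genes of lymph node homing and exit, 13 of 15 were tested, 4 were called higher and 2 lower. Ccr7, Cd27, a costimulatory receptor of memory cells, and Ly6c2 were among those called higher. Il7r, the receptor for the survival cytokine IL-7, went the other way, with 18.1, 200.2, 138 and 219.6 CPM against 288, 366, 489 and 579 (log2 fold change -1.54 ± 0.22, adjusted p = 0.000216), and so did Itgb7. Il7r was lowest in Csf3r+/+ library 1. S1pr1, the receptor for exit from tissue, was not called (-0.06 ± 0.17, adjusted p = 0.961).

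Of the genes of tissue residence and inflammatory homing, 17 of 17 were tested, 2 were called higher and 5 lower. Cxcr6, a chemokine receptor of tissue-resident T cells, had 215, 114, 566 and 685 CPM against 1121, 348, 2238 and 2328, with a log2 fold change of -1.85 ± 0.11, adjusted p = 1.5e-08. Itgae, the integrin chain CD103 that binds E-cadherin, was also lower (-2.27 ± 0.28, adjusted p = 4.77e-05), as were Ccr4, Ccr2 and Ccr1. Itga4, a chain of the VLA-4 integrin, was among those called higher.

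The genes of type 3 T cells and of PLZF, the factor of innate-like T cells encoded by Zbtb16, stood lower. Of this list 20 of 21 were tested, 18 were called lower and none higher, with a median log2 fold change of -1.97. Genes near 0 in the Eomes-positive cells, such as Ccr6, passed the limit on low counts through the other cells. This count and median therefore lean toward genes that are lower in the Eomes-positive cells. Zbtb16 had 5.18, 2.7, 37.3 and 47.6 CPM against 46.1, 13, 120.5 and 122 (log2 fold change -1.78 ± 0.21, adjusted p = 2.23e-05), and Ccr6, a receptor for CCL20, 0, 0.599, 8.78 and 5.29 against 37.9, 8.33, 61.4 and 41.1. In both Csf3r-/- libraries Zbtb16 and Ccr6 stayed higher within the Eomes-positive cells than in the Csf3r+/+ libraries, in step with the other cells. Il22 had 0 UMIs in the Eomes-positive cells and is too low in the others to give a fold. Under every alternative run at least 14 genes of the list were called lower.

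NK receptors and adaptors stood higher. Of 26 genes 24 were tested, 15 were called higher and none lower, with a median log2 fold change of 0.84. Klra7, a receptor of the Ly49 family for MHC class I, had 785, 679, 538 and 471 CPM against 419, 485, 141 and 119.6 (log2 fold change 1.34 ± 0.19, adjusted p = 0.000169). Klre1, a lectin-like receptor, had 569.9, 322, 296 and 352 CPM against 223, 233, 81 and 67.6 (log2 fold change 1.51 ± 0.21, adjusted p = 0.000139). Klra4 and Klra6, other Ly49 genes, stood at 1.89 and 1.31, and Cd160, a receptor for HVEM and MHC class I, at 1.15. The Ly49 genes are near-identical copies, so that the split of reads between them is uncertain. In Csf3r+/+ library 2 the other cells were high as well. Without Csf3r+/+ library 1 the count was 7 higher of 23. With at least 2 Eomes UMIs asked for, 137 cells of Csf3r+/+ library 2 and 26 of Csf3r-/- library 1 could be used, since the other libraries had 10 and 13 such cells and a sum needed 20. There 3 were higher and 1, Klra9, lower of 23, with a median of 0.21.

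Genes of NK cells and innate lymphoid cells are also on a list of cells that the sort should have removed. Of its 13 genes 11 were tested, 4 were called higher and 2 lower. The list summed to 3300.2, 1585, 1319 and 1945 CPM against 1618, 1343, 754 and 717, led by Fcer1g in the Eomes-positive cells. Eomes itself is on the list, so that part of each difference follows from the choice of cells. In Csf3r+/+ library 2 the Eomes level given above was as large as the difference between the sums, and in the other libraries the difference was larger. In the Tbx21-positive cells, which lack Eomes by the rule, the list summed to 2563, 1362, 1726 and 1813 CPM. Of its defining genes, Itga2, an integrin of NK cells, had 0, 9, 1 and 0 UMIs, and Il1rl1, the IL-33 receptor of innate lymphoid cells, 0, 3, 0 and 0. Tyrobp, a signalling adaptor, had 769, 126, 112 and 309.5 CPM against 154, 109, 78.5 and 97.8, and 5 cells gave 64.3% of its UMIs in Csf3r+/+ library 1. Ncr1, the receptor NKp46 of NK cells, had 104, 26.4, 21.9 and 26.5 against 57.2, 18.8, 13.2 and 5.74 CPM. Of 10 T cell genes tested, none was called higher and 2 lower, Cd3g (-0.38 ± 0.08, adjusted p = 0.00987) and Lat, with a median of -0.02. Cd3d had 1241, 1070.3, 1269 and 1143 CPM against 1178, 1027, 1159 and 1092. The part of NK cells or of doublets with them in these differences was not tested.

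Of the type 1 genes, 17 of 17 were tested, 2 were called higher and 3 lower, with a median of 0.16. Xcl1, a chemokine for cross-presenting dendritic cells, had 2207, 1772, 661 and 1000.1 CPM against 1012, 1421, 255 and 286 (log2 fold change 1.20 ± 0.16, adjusted p = 0.000126), and Ccl5, a chemokine of effector and memory cells, stood at 0.99 ± 0.19, adjusted p = 0.00303. Ifng, which encodes interferon-γ, was not called (0.16 ± 0.18, adjusted p = 0.782), and Tnf and Il12rb1, a chain of the IL-12 receptor, were lower (-0.84 ± 0.19, adjusted p = 0.0112 and -1.29). Of the cytotoxic genes, 12 of 16 were tested, 4 were called higher and 2 lower. Gzmm, Nkg7, Ctsw and Cst7, which encode granule proteins and their regulators, were higher, Gzma was lower, and Gzmb was not called (-0.37 ± 0.19, adjusted p = 0.345). Gzmc, another granzyme, reached 1018 CPM in Csf3r+/+ library 1, but 319 of its 393 UMIs there lay in 1 cell.

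Of the SLAM receptors and adaptors, 10 of 10 were tested, and 3 were higher and 1 lower. Sh2d1a, which encodes SAP, had 290.1, 187, 209 and 214 CPM against 123, 135, 81.4 and 63.5 (log2 fold change 1.20 ± 0.16, adjusted p = 0.000123). Slamf7 was higher and Slamf1 lower (-1.88 ± 0.34, adjusted p = 0.00179). Of 12 costimulatory receptors tested, 2 were higher and 5 lower, among them Cd40lg, Icos and Tnfrsf4. Of 14 checkpoint receptors tested, Cd200 and Lag3 were higher and Vsir lower, and Pdcd1, which encodes PD-1, was not called (0.19 ± 0.23, adjusted p = 0.806). Cd200 rested on few UMIs and was at 0 in Csf3r+/+ library 1. Of 17 effector transcription factors, Irf8 and Ikzf2 were higher, and Gata3, Id2 and Ikzf3 lower.

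The S and G2/M genes of the cell cycle depended on depth. Of 20 tested, 13 were called higher and none lower, with a median of 0.78, and Birc5, a regulator of chromosome segregation, stood at 1.44 ± 0.19, adjusted p = 0.000126. In cells of 2000 to 5000 UMIs none of the 20 was called and the median was -0.24, and in cells thinned to 1500 UMIs none of 18 was called. Within 2000 to 5000 UMIs 13 of 24 NK receptors were called higher and 1, Klra9, lower, and 17 of 19 type 3 genes were called lower. Of 19 immediate early genes, which respond within minutes to a stimulus or to tissue digestion, 1 was higher and 7 were lower. Of 13 γ-chain cytokine receptors and their regulators, 3 were higher and 4 lower.

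By the rule for naming genes, the 10 genes with the largest rise in all 4 libraries included Ccr7, Rgs16, Crtam, Klre1, Plek, Nsg2, Nrgn, Birc5 and Lag3, from 1.95 down to 1.38 on the log2 scale. Nrgn was no longer called in 9 of 14 alternatives and Lag3 in 4 of 15, among them leaving out Csf3r+/+ library 1, Csf3r-/- library 1 or Csf3r-/- library 2. Ccr7, Crtam and Klre1 passed in all 15, and the other named genes of this rise were lost in 1 or 2. Rgs16, which shortens signals of G protein-coupled receptors, had 127, 42.3, 72.4 and 74.1 CPM against 42.3, 24.3, 5.25 and 20.2. Crtam, an adhesion receptor of activated cytotoxic cells, had 132, 64.7, 94.4 and 76.7 CPM against 34.6, 33.2, 24.5 and 17.1. The 10 with the largest fall were Prr29, Ccr6, Il1r1, Ffar2, Slc6a13, Fam83a, Lrrc25, Pxdc1, Cysltr1 and Ly6g5b, from -3.37 to -2.55. Except for Pxdc1 and Ly6g5b, their mean levels in the Eomes-positive cells were low, from 2.50 CPM for Prr29 to 8.63 for Fam83a. Such genes passed the limits on low counts and on CPM through the other cells, so that the size and order of these falls are uncertain. Pxdc1 had 18.1, 8.09, 50.5 and 39.7 CPM against 271, 57.6, 204 and 199.8. For each of these 10 genes the other cells of Csf3r+/+ library 2 had the lowest level of the 4 libraries, and in each library the Eomes-positive cells were below the other cells. The count of calls was 916 without Csf3r+/+ library 2 and 298, 287 and 346 without each of the others in turn. It was 135 at 1500 UMIs.

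The comparison with Tbx21-positive cells without Eomes asked how cells with the one T-box factor differ from cells with the other. There were 290, 926, 194 and 212 Tbx21-positive Eomes-negative cells, with medians of 3612.5, 3302, 3184.5 and 2966 UMIs. Of 5798 genes tested, 209 (3.6%) were called, 84 higher (1.45%) and 125 lower (2.16%) in the Eomes-positive cells, and Tbx21 was left out as well. Some of the Eomes-positive cells also had Tbx21, as given above. Against these cells the NK receptors no longer stood apart as a group. Of 20 tested, 2 were higher and 2 lower, with a median of 0.00, and Klra7 was at 785, 679, 538 and 471 CPM against 789, 514, 500.2 and 415 (log2 fold change 0.21 ± 0.07, adjusted p = 0.146).

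**Figure D3:**
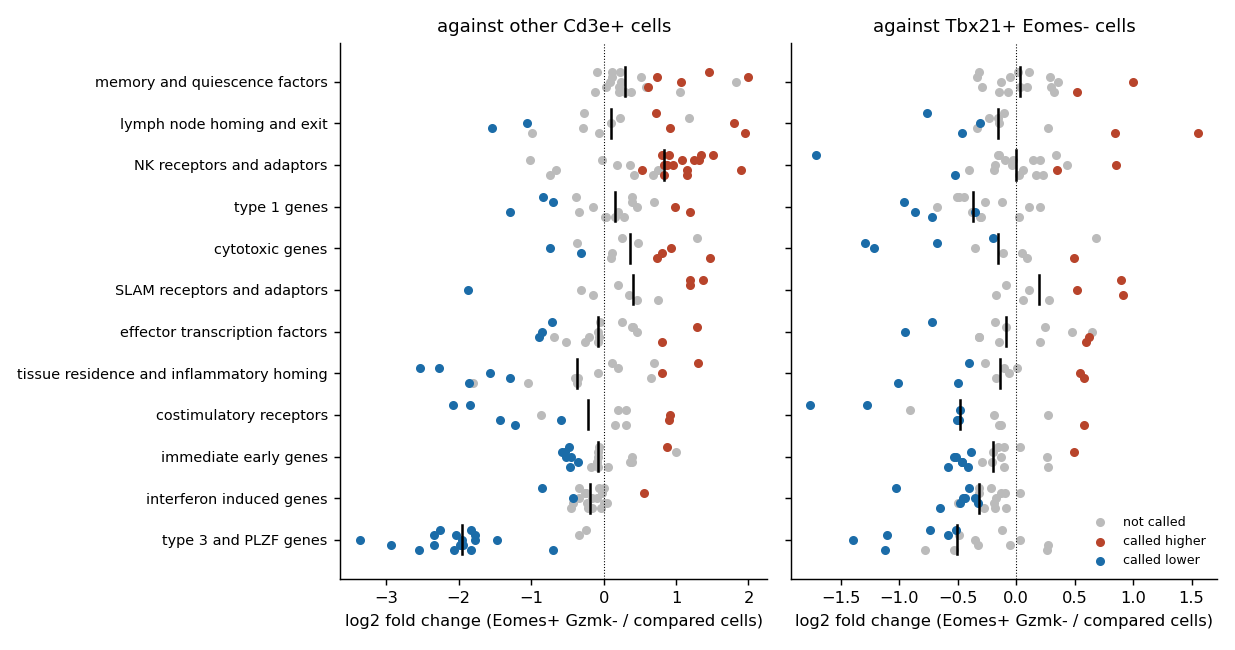
Log2 fold change of each tested gene (points) in 12 gene lists, with the list's median (black bar), for the Eomes-positive cells without Gzmk against other Cd3e-positive cells (left) and against Tbx21-positive Eomes-negative cells (right). Red and blue points passed an adjusted p of 0.05, and Il22, with 0 UMIs in the Eomes-positive cells, is left out. The type 3 genes lie at a median of -1.97 on the left and -0.50 on the right, and the NK receptors at 0.84 and 0.00.

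Ccr7 was higher in this comparison too. It had 28.5, 246, 193 and 177 CPM against 5.87, 109, 41.7 and 40.7 (log2 fold change 1.56 ± 0.16, adjusted p = 1.18e-05). Slamf6 was higher as well (0.92 ± 0.17, adjusted p = 0.00441), but not with DESeq2 (adjusted p = 0.116) nor without Csf3r+/+ library 2 (adjusted p = 0.083). Id3 was not called (0.30 ± 0.14, adjusted p = 0.34), and Myb was too low to be tested. Of the memory and quiescence factors 17 were tested, and Nsg2 and Tcf7 were called higher.

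Receptors and signalling proteins were among the genes with the largest rise. Rgs16 had 127, 42.3, 72.4 and 74.1 CPM against 26.8, 12.2, 6.95 and 25.8 (log2 fold change 2.04 ± 0.19, adjusted p = 7.29e-06), and Crtam 132, 64.7, 94.4 and 76.7 against 36.1, 32.5, 19.5 and 27.1 (1.44 ± 0.18, adjusted p = 7.22e-05). Pdcd1 had 62.2, 70.4, 63.7 and 169 CPM against 19.3, 19.4, 33.3 and 125 (1.28 ± 0.20, adjusted p = 0.000858), and Csf3r-/- library 2 was high in both groups. Sh2d1a had 290.1, 187, 209 and 214 CPM against 129, 128, 117 and 81.3 (0.90 ± 0.12, adjusted p = 0.00018). H2-Oa, a chaperone chain of MHC class II loading, Plek, a substrate of protein kinase C, and Decr1, an enzyme of fatty acid oxidation, completed the 10 genes of largest rise with Nsg2, Ccr7 and Slamf6. For Rgs16, Crtam, Sh2d1a and H2-Oa the lowest level in the Eomes-positive cells of the 4 libraries lay above the highest in the Tbx21-positive cells.

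Some granzyme and type 1 genes were lower, among them Gzmb, Gzma, Tnf and Ifng. Gzmb, which encodes granzyme B, had 1145, 408, 325 and 212 CPM against 1637, 1060.0, 991 and 973 (log2 fold change -1.29 ± 0.15, adjusted p = 4.55e-05), and Gzma stood at -1.22 ± 0.23, adjusted p = 0.00479. Of 10 cytotoxic genes tested, 4 were lower and 1 higher, and Nkg7 was not called (0.05 ± 0.05, adjusted p = 0.787). Of 16 type 1 genes 4 were lower, among them Tnf, Il12rb1 and Ifng, and none was higher. Ifng had 306, 212, 48.3 and 106 CPM against 254, 377, 157 and 285 (-0.72 ± 0.18, adjusted p = 0.0302). In Csf3r+/+ library 1 alone it was higher in the Eomes-positive cells. Klra9, a Ly49 receptor, had 111, 94.4, 37.3 and 95.2 CPM against 359.8, 285, 253 and 252 (-1.71 ± 0.13, adjusted p = 7.31e-07) and was lower in each library.

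Some genes induced by interferon were lower too. Of 20 tested, 8 were called lower and none higher, with a median of -0.32, with the largest falls in Ifi204 (-1.03), Ifi27l2a (-0.65) and Rtp4 (-0.48). Ifitm3, which blocks the entry of viruses, had 148, 52.2, 28.5 and 108 CPM against 247, 250.1, 233 and 310.5 (log2 fold change -1.84 ± 0.20, adjusted p = 2.23e-05), and its neighbor Ifitm2 stood at -1.93 ± 0.17, adjusted p = 4.11e-06. Reads may be split between these near-identical genes. Of 11 costimulatory receptors 5 were lower, led by Cd40lg (-1.76 ± 0.20, adjusted p = 4.55e-05) and Tnfrsf4 (-1.28 ± 0.28, adjusted p = 0.0152), and 1 was higher. Anxa1, a regulator of inflammation, Socs2, a brake on cytokine signals, Styk1 and Ly6g5b completed the 10 genes of largest fall. Of 18 immediate early genes 7 were lower and 1 higher, and of 16 type 3 genes 6 were lower.

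**Figure D4:**
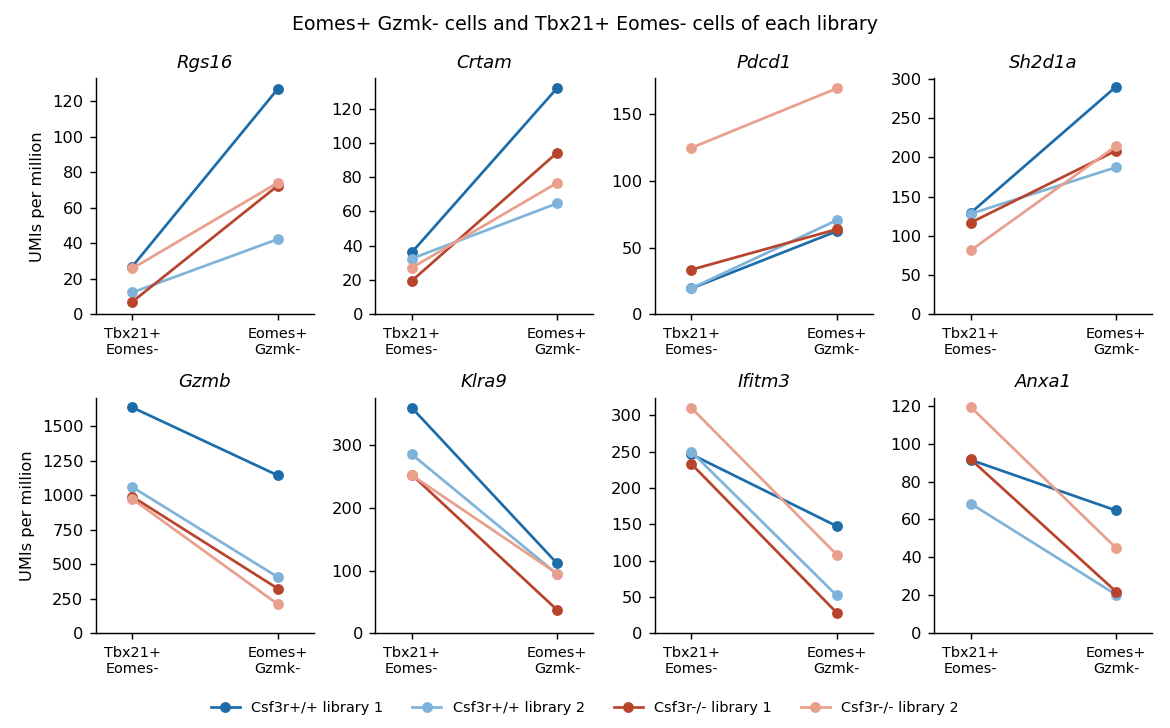
CPM of 8 genes in Tbx21-positive Eomes-negative cells and in Eomes-positive cells without Gzmk, joined by a line for each library. Rgs16, Crtam, Pdcd1 and Sh2d1a rise and Gzmb, Klra9, Ifitm3 and Anxa1 fall in all 4 libraries.

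DESeq2 called 53 of the 209 genes, and no others. The count was 49 without Csf3r+/+ library 2, 125 without Csf3r-/- library 2 and 28 at 1500 UMIs, where 1520 genes could be tested. Rgs16, Crtam and Ccr7 passed under each of the 12 alternatives run with a value for them. Decr1 was lost in 5 of 9, Plek in 4 of 11, Slamf6 in 4 of 12 and Tnfrsf4 in 3 of 9, and the other named genes with the largest changes in 0 to 2.

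Eomes-positive cells with Gzmk were few, 42, 31, 12 and 14, and they could be compared in the 2 Csf3r+/+ libraries alone, where at least 20 were found. Of 3671 genes tested, 234 (6.37%) were called, 143 higher (3.9%) and 91 lower (2.48%) in the cells without Gzmk. This count rested on 1 residual degree of freedom. It was 23 with DESeq2, and 5 with the study's upper limits on genes per cell. By the rule for naming genes, Gzmc, Atp1b1, Tyrobp and Klra9 were among the 5 genes with the largest rise without Gzmk, and Gzma, Tnfrsf4, Pdcd1, Ncapg and Rgs16 had the largest fall. Their values are given as a description, for Csf3r+/+ libraries 1 and 2 in this order. Pdcd1 had 62.2 and 70.4 CPM without Gzmk and 407 and 479.7 with it, and Gzma 18.1 and 23.7 without it and 568 and 159.9 with it. Klra9 had 111 and 94.4 CPM without Gzmk and 4.47 and 13 with it. For Gzmc, 1 cell without Gzmk held 319 of 393 UMIs in library 1 and 1 cell 149 of 224 in library 2. Of 18 S and G2/M genes 14 were lower without Gzmk, and of 17 NK receptors and adaptors 14 were higher. The cells with Gzmk were deeper, with medians of 4483.5 and 7006 UMIs per cell against 4043 and 4871. The part of depth in these counts was not tested. Ccr7 and Slamf6 went opposite ways in the 2 libraries. With Gzmk, Ccr7 stood at 4.47 and 709 CPM and Slamf6 at 22.4 and 169, below the cells without it in library 1 and above them in library 2.

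Cells with and without a UMI of Ccr7 were set side by side, as a description. In Csf3r+/+ library 2, at 1500 UMIs, 123 of its 613 cells had a UMI of Ccr7. Of these, 67.5% had a UMI of a Ly49 gene (any Klra symbol), 62.6% of Xcl1 and 18.7% of Gzmb. Of the 490 without Ccr7 the shares were 75.5%, 79.4% and 25.5%, and for Tcf7 they were 32.5% with and 26.1% without Ccr7. Pdcd1 was found in 13.8% of the cells with Ccr7 and in 2.24% of those without. Over all libraries, 11.2%, 1.69% and 3.93% of the macrophage-like barcodes had a UMI of a Ly49 gene, Xcl1 and Gzmb, and none had one of Tcf7 or Pdcd1. Ccr7 itself was found in 28.1% of the macrophage-like barcodes of this library, more than the 20.1% of the Eomes-positive cells, so that a Ccr7 UMI here does not show that a cell expressed it. The other Cd3e-positive cells of that library differed the same way, with Ly49 in 55.4% of those with Ccr7 and 62.3% of those without, Gzmb in 19.8% and 44.5%, and Pdcd1 in 6.31% and 2.40%, so that the pattern was not particular to the Eomes-positive cells. The other libraries held 6, 14 and 13 Eomes-positive cells with Ccr7. Ly49 genes were found in 66.7%, 35.7% and 69.2% of these and in 67.9%, 61.4% and 59.5% of those without, so that Csf3r-/- library 2 went the other way.

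Between the genotypes, within the Eomes-positive cells without Gzmk, 43 of 4506 genes (0.954%) were called, 13 higher (0.289%) and 30 lower (0.666%) in Csf3r-/-. The 13 genes held 8 of the 15 type 3 and PLZF genes tested. Genes near 0 in Csf3r+/+, such as Il17a, passed the limit on low counts through the Csf3r-/- libraries alone, so that this count leans toward genes that are higher there. Il17a, which encodes the cytokine IL-17A, had 0 and 1 UMIs in Csf3r+/+ against 33 and 126 in Csf3r-/-, the latter found in 11 of 102 and 30 of 87 cells (adjusted p = 0.0373). With so few UMIs in Csf3r+/+ no fold is given. Zbtb16 had 5.18, 2.7, 37.3 and 47.6 CPM, Maf, a factor of IL-17 and regulatory programs, 10.4, 10.8, 72.4 and 97.9, and Cxcr6 215, 114, 566 and 685. Both Csf3r-/- libraries were above both Csf3r+/+ libraries for each of these genes. The other cells differed in the same direction and had higher levels, for Il17a 11, 9.11, 232 and 1366 CPM and for Maf 128, 58.5, 243 and 224. The part of free RNA or of type 3 cells with a stray Eomes UMI in these levels was not tested. Abi3bp, Ly6g5b and Sdc1 were the other genes of largest rise. The call was lost for Sdc1 in 6 of 11 alternatives, for Ly6g5b and Zbtb16 in 5 of 12, for Abi3bp in 2 of 7 and for Il17a in 2 of 13.

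The 5 genes of largest fall were Scand1, Marc2, Abhd17a, C1qbp and Yipf4. Scand1, a transcriptional cofactor, had 109, 159, 11 and 7.94 CPM in the Eomes-positive cells and 155, 181, 11 and 8.76 in the other cells. C1qbp, a mitochondrial matrix protein, had 176, 177, 48.3 and 21.2 CPM and 136, 151, 23 and 16.9. In each of the 5 genes both kinds of cell were lower in the Csf3r-/- libraries, and in the test of the difference between the 2 kinds of cell none of the 5 was called (adjusted p from 0.684 to 0.985). Between genotypes their calls were lost in 1 (Scand1) to 4 (Marc2 and Abhd17a) of 13 alternatives. The matrices were made separately for each genotype, so that processing and genotype cannot be told apart.

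**Figure D5:**
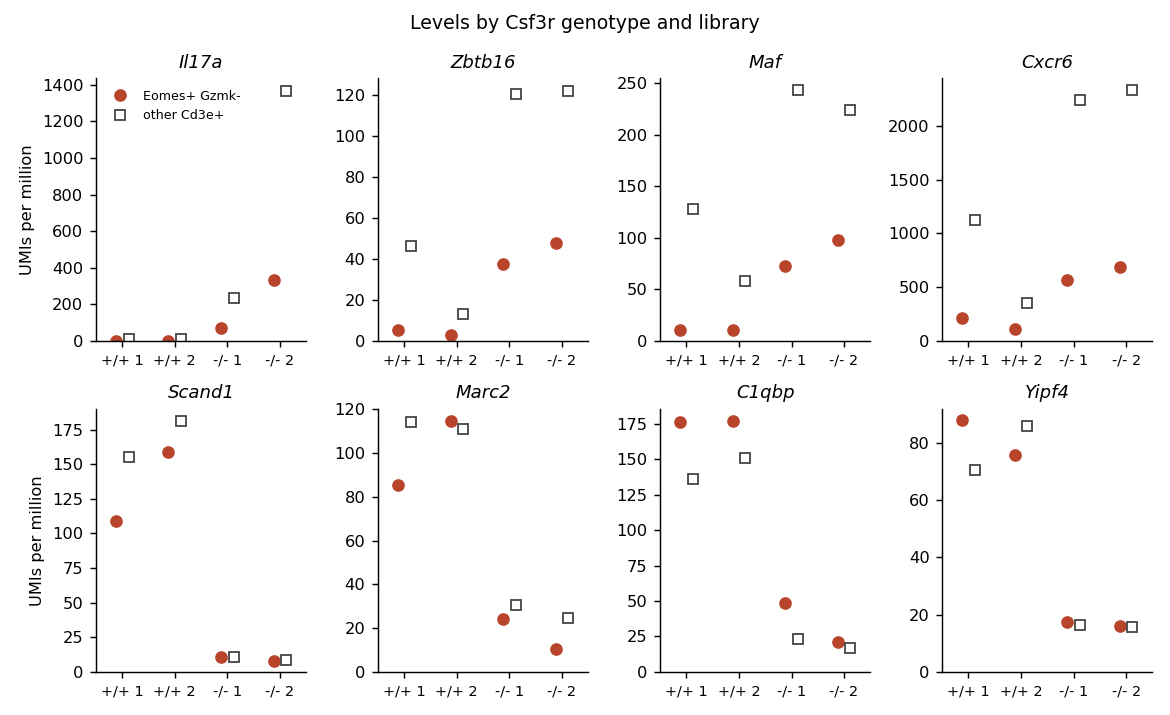
CPM in the Eomes-positive cells without Gzmk (red circles) and in the other Cd3e-positive cells (open squares) of each library. In Il17a, Zbtb16, Maf and Cxcr6 both kinds of cell are higher in the Csf3r-/- libraries and the Eomes-positive cells stay below the others, and in Scand1, Marc2, C1qbp and Yipf4 both are lower.

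None of the 4 markers tested passed between genotypes with all libraries in, with log2 fold changes of 0.23 for Ccr7, -0.13 for Myb, -0.05 for Slamf6 and -0.88 for Id3. The result for Ccr7 rested on Csf3r+/+ library 2, without which Ccr7 was far higher in Csf3r-/- than in the remaining Csf3r+/+ library. Of 15 type 1 genes, 8 cytotoxic genes and 19 NK receptors and adaptors tested, none was called. Their medians were -0.35, -0.41 and -0.73. Xcl1 stood at -1.29 ± 0.28, adjusted p = 0.122 and Ifng at -1.77 ± 0.40, adjusted p = 0.133. With Csf3r+/+ library 1 left out 81 genes were called, 19 higher and 62 lower. The balance of higher and lower calls turned with Csf3r-/- library 1 left out, where 23 were higher and 3 lower and 8 of the 26 were among the 43, while without Csf3r-/- library 2 9 were higher and 45 lower. The count was 3 in cells of 2000 to 5000 UMIs and 0 at 1500 UMIs, where 632 genes could be tested and 65 had an unadjusted p under 0.05.

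The difference between the Eomes-positive cells and the other cells itself differed between genotypes for 83 of 10291 genes (0.807%), 69 with a higher log2 ratio to the other cells in Csf3r-/- (0.67%) and 14 with a lower one (0.136%). The 5 named genes with a lower ratio, Pon2, Ikzf3, Lgals1, S100a11 and Tspo, were below the other cells in each library and further below them in Csf3r-/-. Of the markers, Ccr7 (1.36 ± 0.25, adjusted p = 0.00426) and Id3 (1.63 ± 0.32, adjusted p = 0.00624) were among them, with 7 of 24 NK receptors. For Id3 the other cells were lower in both Csf3r-/- libraries than in both Csf3r+/+ libraries, while for Ccr7 Csf3r+/+ library 1 had the lowest level, as given above. The interaction of Ccr7 was 0.54 without Csf3r+/+ library 2 (adjusted p = 0.920), and that of Id3 no longer passed (adjusted p = 0.0801). Without Csf3r-/- library 1 Id3 was at 0.69 (adjusted p = 0.882). Macrophage genes moved with this contrast in 1 library. The list of 12 summed to 264, 287, 195 and 6151 CPM in the Eomes-positive cells, and 3 of 87 cells of Csf3r-/- library 2 held all 163 UMIs of C1qa, a complement gene of macrophages. In the other cells it summed to 214, 455, 301 and 1678 CPM, and Apoe led it in the Eomes-positive cells of that library at 3654 CPM. Without cells that had at least 2 UMIs from the macrophage, B cell and fibroblast lists, 105 genes were called, 60 of them among the 83, and 23 of the 83 were lost. Id3 was among those lost (0.99, adjusted p = 0.323). Their part in the calls was not tested further. It was 14 with DESeq2, 281 with Csf3r+/+ library 1 left out and 47 with Csf3r+/+ library 2 left out.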

How the data were processed

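The authors deposited UMI counts per gene and cell barcode, 1 matrix per genotype, made with the Single Cell 3′ v2 chemistry and Cell Ranger (mm10), which merged the 2 libraries of each genotype by its aggregate step; whether it lowered libraries to equal reads is not stated. Barcodes were split by library and kept with 200 or more genes, no more than 20000 UMIs and a mitochondrial share of up to 10%. The members and gene lists were chosen with earlier results of these data known. Counts were summed per library and cell group of at least 20 cells and tested with edgeR 4.0.16 (TMM, filterByExpr, quasi-likelihood F test, library as block within libraries, no block between genotypes, Benjamini-Hochberg adjusted p under 0.05) in R 4.3.3. DESeq2 1.42.0 was an alternative. Genes of the rule were left out of the tests. Some tested genes that these rules name are not reported here. The study's upper limits on genes per cell (3500 and 4000) were run as an alternative. No cells were clustered and no doublet caller was run. Named genes were the markers, up to 4 genes per list with the largest called change, and the 10 (5 for Gzmk and for genotype) largest called changes in each direction with the same sign in every library and at least 20 CPM. Genes named in a comparison where they did not pass were chosen after their values were seen, as were Il22, Gzmc against the other cells, Klra9 under the alternatives and the Il17a-positive cells set beside the shares. Shares were compared with exact permutation tests, with Clopper-Pearson intervals at 95%. Coordinates come from GENCODE M21 (GRCm38). The tests were tried on simulated data first. Between genotypes, with 2 libraries each, p-values measure the spread between these libraries. Where the library was a block, they measure how far the differences within a library vary from library to library.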

Additional observations from a re-analysis of the deposited data

Results flagged for a closer look

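Barcodes without a UMI of Cd3e, which the comparisons leave out, also held Eomes without Gzmk. At full depth their share was 8.64% and 5.79% in the Csf3r+/+ libraries (64 of 741 and 292 of 5047 barcodes). In the Csf3r-/- libraries it was 1.33% and 1.15% (26 of 1953 and 38 of 3309). At 1500 UMIs the share among barcodes with and without Cd3e together was 1.96%, 3.36%, 1.13% and 0.870%. The barcodes without Cd3e stood out as a signal in data the comparisons do not use. Whether they are T cells whose Cd3e was missed, or NK cells, was not tested.

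For 15 of the named genes the difference between Eomes-positive cells without Gzmk and the other cells differed between genotypes, by the interaction term of edgeR's quasi-likelihood test. Among receptors and homing genes the interaction on the log2 scale was 1.36 for Ccr7, 1.28 for Klre1 and 2.16 for Lag3, all larger differences in Csf3r-/-. Among factors and signalling genes it was 1.63 for Id3, 1.49 for Nsg2, 1.62 for Rgs16, 2.44 for Nrgn and -1.01 for Ikzf3. For the other genes it was 2.96 for Hspb1, 1.86 for Wdr95, 2.13 for Ctsl, -0.75 for Lgals1, -1.44 for Pon2, -0.62 for Tspo and -0.65 for S100a11. The 5 genes with a negative interaction were below the other cells, and further below them in Csf3r-/-. Ctsl, a lysosomal protease of macrophages, rested on 1 cell of Csf3r-/- library 2 that held 50 of its 57 UMIs there, and its interaction was -7.20 at 1500 UMIs. Each of the 15 was lost in some of the 10 to 12 alternatives run, from 2 of 12 for Lgals1 to 7 of 12 for Id3. The call was lost in 6 of 11 for Wdr95, 6 of 12 for Tspo, S100a11 and Rgs16, and 5 of 12 for Ikzf3 and Nsg2. At 1500 UMIs 14 of the 15 were no longer called and Nrgn could not be tested, with Csf3r+/+ library 2 left out 12, and in cells of 2000 to 5000 UMIs 10.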

How the results depend on the processing

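The limits include few cells, shallow counts and 1 dominant library. Against the other Cd3e-positive cells, 530 genes were called, 135 at 1500 UMIs, 183 with at least 2 Eomes UMIs, and 287 to 916 with a library left out. Against Tbx21-positive cells, 209 were called, 53 with DESeq2, 28 at 1500 UMIs, 48 with at least 2 Eomes UMIs, and 49 to 209 with a library left out. Against Eomes-positive cells with Gzmk, 234 were called, 23 with DESeq2, 5 with upper limits on genes and 109 without cells holding other cell types' UMIs. Between genotypes, 43 were called, 69 with DESeq2, 251 without a filter on low counts, 0 at 1500 UMIs, 3 in cells of 2000 to 5000 UMIs, 26 without cells with Tbx21, and 26 to 81 with a library left out. The interaction was called for 83 genes, 14 with DESeq2, 143 without a filter on low counts, 4 at 1500 UMIs and 47 to 281 with a library left out. The difference in share, -1.75 points, was -4.61 without thinning, -2.53 at 2500 UMIs, where the genotypes overlapped (exact permutation p = 0.667), and -2.83 to -0.673 with a library left out. At 1500 UMIs the sums held 25, 124, 34 and 26 Eomes-positive cells, with Cd3e also read at that depth. With at least 2 Eomes UMIs they held 137 and 26 cells of 2 libraries, Csf3r+/+ library 2 and Csf3r-/- library 1, since the other 2 had under 20. The cause of the other changes was not tested.

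With the barcode number as a replicate block, 175 genes were called between genotypes. The libraries share only a number: across 4506 genes the difference between libraries 1 and 2 correlated between genotypes at r = 0.26, over 2 pairs. Where a genotype was left with 1 library, that library was assumed to vary like the others. Leaving out a library, thinning, the window of 2000 to 5000 UMIs, the limit of 2 Eomes UMIs and leaving out cycling cells could not be run against cells with Gzmk, nor the limit of 2 Eomes UMIs between genotypes or for the interaction.

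Sign changes were followed for the markers, Tbx21 and the named genes of largest change. Among these, values that changed sign had not passed the test, except Ctsl, Ccr7 and Rgs16 in the interaction. The median of the S and G2/M genes against the other cells also changed sign in cells of 2000 to 5000 UMIs, as given above. Tbx21 against the other cells was -0.58 at 1500 UMIs and -0.26 with at least 2 Eomes UMIs. Between genotypes Slamf6 was 0.0053 with DESeq2, -0.84 to 0.76 with a library left out, 0.17 in cells of 2000 to 5000 UMIs, 0.14 without cells holding other cell types' UMIs, 0.11 without cycling cells and 0.10 without cells with Tbx21. Myb was 0.10 with DESeq2, -1.06 to 1.41 with a library left out and 0.24 with the replicate block. With a library left out, Ccr7 was -0.54 to 2.69 and Tbx21 -0.97 to 0.046, and the 2.69 of Ccr7 was the value without Csf3r+/+ library 2. At 1500 UMIs the interaction was -7.20 for Ctsl, -0.19 for Ccr7 and -1.89 for Rgs16, and none of them passed.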

Other observations

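Other gene groups were tested for the Eomes-positive cells without Gzmk against the other Cd3e-positive cells. Of 10 heat shock genes, 4 were called higher and none lower, led by Hspe1, a mitochondrial chaperonin (log2 fold change 0.45), and all 4 changes were small. Of 14 glycolysis genes, Pgam1 (0.43) and Tpi1 (0.41) were called higher. Of 13 genes of the Bcl2 family, which set the threshold of cell death, Bcl2a1a, Bcl2a1b and Bcl2a1d were called lower (-1.74, -0.74 and -1.28), and reads may be split between these near-identical copies. Of 20 genes induced by interferon, Usp18 (0.55) was higher and Ifi204 (-0.85) and Ifit1 (-0.42) were lower. Of 7 genes of regulatory T cells, Ikzf2 (0.81), which encodes Helios, was higher and Il2ra (-1.05), the IL-2 receptor α chain, was lower. Of 3 γδ T cell genes tested, 5830411N06Rik (-2.06) was lower.

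Of the genes of other cell types, 0 of 11 macrophage, 0 of 3 B cell, 0 of 2 neutrophil and 0 of 5 dendritic cell genes were called by edgeR (at an unadjusted p under 0.05 Cd68 of the macrophage list and Cd74 and H2-Ab1 of the dendritic list), and no fibroblast gene was abundant enough to be tested. The 2 coreceptor genes tested were not called, and Cd4 had a UMI in none of the 886 cells at 1500 UMIs. Cd8b1 stood at 5.18, 5.4, 26.3 and 26.5 CPM, higher in both Csf3r-/- libraries, with a log2 fold change between genotypes of 2.18 (adjusted p = 0.0942).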
